A study of Mus musculus with 11 samples.

Results

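The genes described are 41 genes of DNA replication and mitosis, of 24849 genes counted in AML12, a line of mouse hepatocytes known in full as alpha mouse liver 12. They were taken by gene name from a list of cell cycle genes, 21 that act in S phase and 20 that act in mitosis, and all 41 were found. The list was chosen with earlier results of these data known. Poly(A) RNA was sequenced from 3 groups. The 4 KO libraries came from cells whose genotype is labelled TXNDC5 Knockdown, made according to the methods of the study with CRISPR/Cas9 and a repair plasmid that carries puromycin resistance, so that resistant cells were kept. The 3 WT libraries came from unedited AML12 cells and one of them is labelled WT 5-6. The 4 KI libraries came from cells labelled TXNDC5 Knockin, in which TXNDC5 was to be overexpressed from the ROSA26 locus. TXNDC5 is a thioredoxin-like protein disulfide isomerase of the endoplasmic reticulum. All groups share the AML12 background, no treatment or harvest time is given per library, and the labels do not say whether libraries of a group came from separate cultures, so that p-values measure the spread between libraries, which may be technical. Whether an edited group grew from 1 clone is not given in the sources used here, and passage, selection or the choice of cells cannot be told apart from the edit.

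Txndc5 itself was read first, as a check of the labels. Its level, in CPM (counts scaled to a common library size by the trimmed mean of M values, TMM), was 10.2, 8.5, 12.9 and 9.39 in the KO libraries, 147, 138 and 143 in the WT libraries and 158, 179.5, 176 and 163 in the KI libraries. The KO libraries lay far below the others, with a log2 fold change against WT of -3.81 ± 0.15 (standard error). The KI libraries lay above the WT libraries without overlap but by only 0.24 ± 0.12 on the log2 scale, which did not pass the test (adjusted p = 0.136, edgeR's quasi-likelihood test). Scaled by library totals alone, the difference was 0.57 (adjusted p = 0.00623). The libraries labelled Knockin are called KI below. Summed CPM of 12 hepatocyte markers was 9769 to 11608 in KO, 7397 to 9447 in WT and 8581 to 10161 in KI. The sums hide differences between single markers. Ahsg was at 0 counts in the KI libraries, 0 to 2 in WT and 146 to 242 in KO. Alb, Apoa1 and Hnf4a had more counts in every KO library than in any other library. Serpina1a, summed over its entries, had fewer counts in every KO library, and Fgb fewer in every KI library, than in any other library. Markers of fibroblasts and stellate cells summed to at most 1.69 CPM and endothelial markers to at most 0.425 CPM, while leukocyte markers summed to 2.04 to 2.58 CPM in KO, 6.64 to 9.56 in WT and 3.24 to 6.66 in KI, with Adgre1 at 0 throughout. Libraries held 29840366 to 38422243 counts, and 1 newly assembled entry without a gene name took 11.3% to 17.1% of counts in WT, 4.32% to 6.44% in KO and 4.82% to 9.12% in KI. With the 2 largest such entries left out, 38 of the 41 genes were again higher in each edited group than in WT. Because counts were scaled by TMM, every level and change is measured against most other genes, not per cell. The part of leukocyte marker RNA in the results was not tested.

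A dividing cell copies its DNA in S phase and separates the copies in mitosis, and it makes the proteins for each step only shortly before they are needed. In G1, cyclin D kinases and then cyclin E with CDK2 inactivate the retinoblastoma protein, which frees E2F transcription factors to switch on the S phase genes. Later the MuvB complex, with B-MYB and FOXM1, switches on the mitosis genes through promoters that carry the CHR element (cell cycle genes homology region), often beside CCAAT boxes that bind NF-Y. Hepatocytes of the adult liver are mostly out of the cycle and re-enter it when the liver regenerates, whereas a line such as AML12 proliferates in culture. In bulk RNA, more cells in S phase or mitosis and more RNA of these genes per cell cannot be told apart.

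Promoter sequence was read next, as a description of the listed genes. It is the same whatever the libraries hold and gives no support to their changes. RefSeq (build GRCm38.p6) gave windows from 250 bases before to 50 bases after the annotated start for 33 of the 41 genes, 36 windows in all. The bases directly after the start were found in a transcript of the gene for 24 of the 36 windows. For the rest, this check did not bear out the annotated start. The genes without a window were Mcm4, Gmnn, Ccne2, Ccna2, Foxm1, Aurkb, Kif20a and Tpx2. The motif of E2F factors was searched as the letters TTTCCCGC, TTTCGCGC, TTTGCCGC and TTTGGCGC, the CHR motif as TTTGAA and TTCGAA, and the NF-Y box as CCAAT, each on both strands. E2F matches on opposite strands can overlap one another, and TTCGAA reads the same on both strands. Below are the 160 bases directly before the start of a pair of S phase genes, with the E2F letters in capitals, and of a pair of mitosis genes, with the CHR letters in capitals, each printed 5′ to 3′ on the strand of the gene. They are shown as examples of windows that hold these letters, and an E2F match in the Cdk1 stretch is left in lower case because the capitals there mark the CHR letters. Mcm6 lies at chr1:128359706-128359865 on the minus strand, Mcm5 at chr8:75109349-75109508 on the plus strand, Cdk1 at chr10:69352913-69353072 and Cdc20 at chr4:118437344-118437503, both on the minus strand.
Mcm6: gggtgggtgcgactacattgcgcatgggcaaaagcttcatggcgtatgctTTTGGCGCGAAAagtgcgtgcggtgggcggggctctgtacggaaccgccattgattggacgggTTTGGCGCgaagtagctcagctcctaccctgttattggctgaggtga
Mcm5: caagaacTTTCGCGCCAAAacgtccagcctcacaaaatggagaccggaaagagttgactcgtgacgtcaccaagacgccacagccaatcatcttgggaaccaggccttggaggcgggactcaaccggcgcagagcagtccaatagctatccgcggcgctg
Cdk1: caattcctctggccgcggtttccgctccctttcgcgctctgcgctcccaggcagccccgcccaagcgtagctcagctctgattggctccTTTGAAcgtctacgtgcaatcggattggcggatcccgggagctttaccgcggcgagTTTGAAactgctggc
Cdc20: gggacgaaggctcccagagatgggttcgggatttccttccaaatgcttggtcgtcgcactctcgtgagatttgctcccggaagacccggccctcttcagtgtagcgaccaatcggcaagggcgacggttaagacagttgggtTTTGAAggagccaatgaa

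E2F letters occurred in 8 of 20 windows of S phase genes (40%) and in 1 of 16 windows of mitosis genes (6.25%), against 2.26% of all 32851 windows. The S phase genes with them were Cdc6, Cdk2, Cdt1, E2f2, Mcm3, Mcm5, Mcm6 and Mcm7, and the mitosis gene was Cdk1. The CHR letters showed the opposite order, with 4 of 20 windows of S phase genes (20%), 13 of 16 windows of mitosis genes (81.2%) and 19.2% of all windows. CCAAT was found in 70% of the S phase windows, 93.8% of the mitosis windows and 37.4% of all windows. Among genes of the same processes outside the 41, the E2F letters stood in 27.6% of replication windows and 10.8% of mitosis windows, and the CHR letters in 19% and 67.7%. A match is a description of letters and not a measured binding site. Windows of 1 gene with several starts can share sequence, as those of Prc1 do, while those of E2f2 and of Mcm7 do not overlap.

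**Figure D1:**
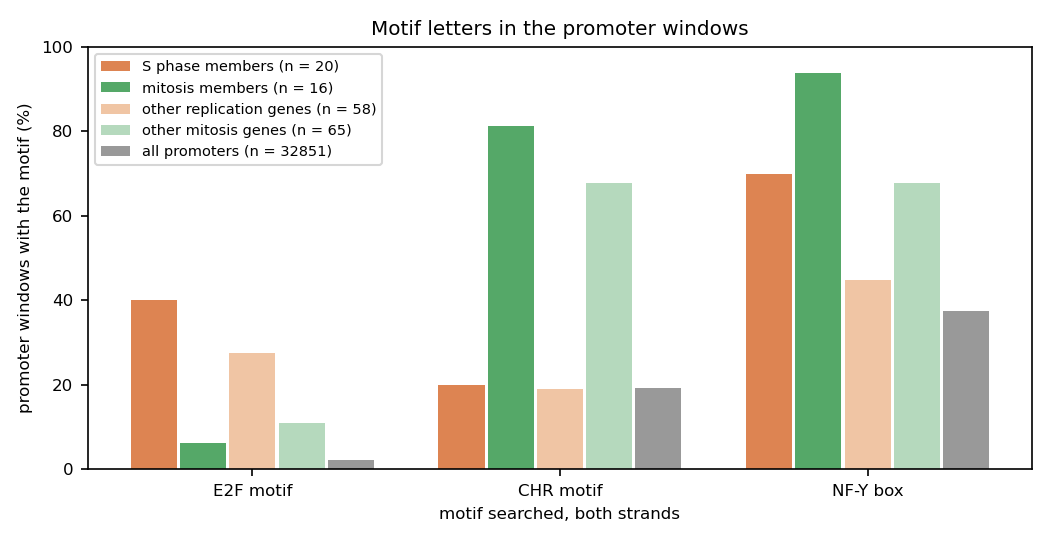
Bars give the percentage of promoter windows (y axis, from 0) that hold the letters of each motif (x axis, both strands), for the S phase and mitosis genes described here, other genes of both processes and all promoters, with the number of windows in the legend. The E2F bar is highest for the S phase genes (40%) and the CHR bar for the mitosis genes (81.2%).

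Against WT, the KO libraries held more RNA of almost all replication and mitosis genes. At an adjusted p under 0.05, 38 of the 41 genes were higher, 1 was lower (E2f1) and 2 did not pass (Gmnn and Ccnb2), whereas 26.7% of all 13359 genes tested were higher and 28.4% lower. Levels of the 38 genes that rose did not overlap between KO and WT, against 28.2% of all genes in that direction. The median log2 fold change was 1.39 over the 21 S phase genes and 1.79 over the 20 mitosis genes, with -0.03 over all genes tested. By more than 1 on the log2 scale rose 33 of the 41, against 1500 of the 13359 genes tested. The KI libraries, set against the same WT libraries, also gave 38 higher genes, 1 lower (E2f1) and 2 that did not pass (Gmnn and E2f2), where 21.2% of all 13534 genes were higher and 21% lower. Those 38 did not overlap between KI and WT either, against 23.4% of all genes. The KI medians were 1.32 over the 21 S phase genes and 1.21 over the 20 mitosis genes, with -0.02 over all genes. By more than 1 rose 28 of the 41, against 1116 of the 13534 genes. Because both comparisons rest on the same 3 WT libraries, a library effect in WT enters both, and their likeness is no independent support of either. All 41 genes passed the filter on low counts in each comparison.

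**Figure D2:**
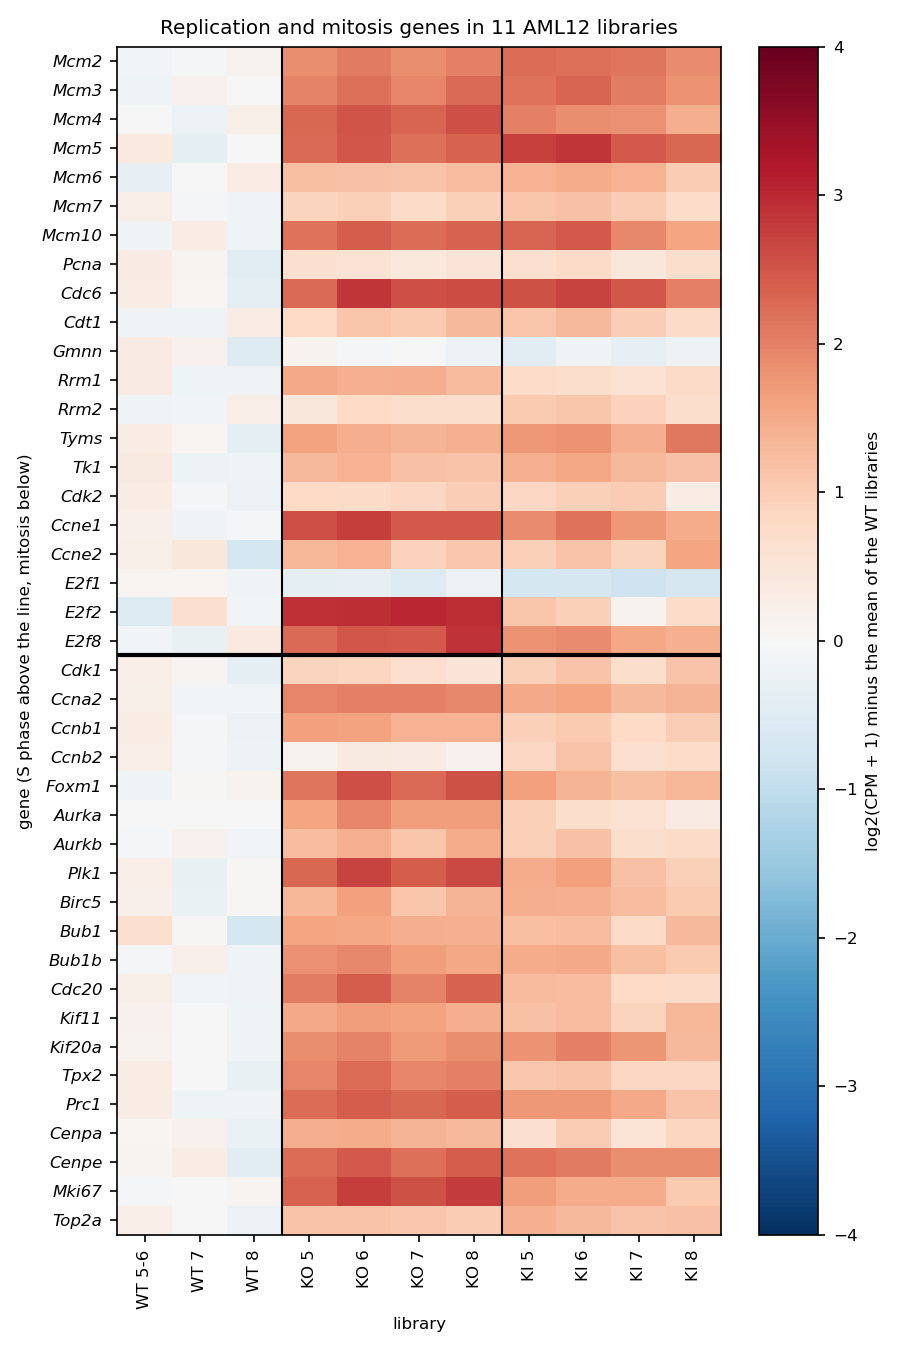
Colour gives log2(CPM + 1) of each gene (rows) in each library (columns) minus the mean of the 3 WT libraries, with S phase genes above the heavy line and mitosis genes below it. Rows in the KO and KI columns are red for most genes, with Gmnn and E2f1 pale or blue, and Ccnb2 pale in KO.

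Summed over the 21 S phase genes, the level was 1589 to 1732 CPM in KO, 669 to 827 CPM in WT and 1433 to 1719 CPM in KI. Over the 20 mitosis genes it was 1792 to 2050 CPM in KO, 487 to 641 CPM in WT and 1218 to 1459 CPM in KI. Neither sum overlapped between WT and an edited group, and the mitosis sum also kept KO apart from KI. Libraries of a group differed as well. WT 8 was the lowest WT library for 13 of the 20 mitosis genes and WT 5-6 the highest for 13, KO 6 was the highest KO library for 15, and KI 8 was the lowest KI library for 14 of the 21 S phase genes. The median SD of log2(CPM + 1) was 0.28 for S phase and 0.23 for mitosis genes in WT, 0.12 and 0.14 in KO and 0.21 in KI for both.

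The 6 MCM genes, which encode the ring-shaped helicase that unwinds DNA at origins, were all higher in both edited groups. Mcm4 was at 86.2, 101, 88.5 and 106 in the KO libraries, 16.7, 14.0 and 19.9 in the WT libraries and 70.2, 62.6, 61.4 and 47.5 in the KI libraries (CPM), and its log2 fold change was 2.47 ± 0.15 in KO and 1.84 ± 0.18 in KI. Mcm5 was at 86.0, 100.3, 82.5 and 92.1 in the KO libraries, 22.4, 13.0 and 16.9 in the WT libraries and 119, 129, 97.3 and 88.0 in the KI libraries, with changes of 2.35 ± 0.18 and 2.64 ± 0.21. For both genes the highest WT library lay below the lowest edited library by a wide margin. Mcm2 and Mcm3 rose by 1.97 and 2.13 in KO and by 2.17 and 2.14 in KI. The smallest changes of the ring were those of Mcm6 (1.16 in KO and 1.32 in KI) and Mcm7 (0.87 and 1.02). Between the edited groups, Mcm4 alone of the 6 was called, being higher in KO by 0.66 ± 0.12, while the other 5 stood between -0.26 and 0.01 and did not pass. Mcm5 was called lower in KO with DESeq2 (-0.27, adjusted p = 0.0473). Without KI 8, Mcm2 (-0.25), Mcm5 (-0.35), Mcm6 (-0.24) and Mcm7 (-0.22) were called lower in KO.

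Licensing and fork genes followed with one exception. Cdc6, which loads the helicase onto origins, was at 14.2, 22, 18.1 and 18.6 in the KO libraries, 2.94, 2.38 and 1.42 in the WT libraries and 17.5, 19.5, 16.9 and 11.9 in the KI libraries. The WT libraries were the lowest by far, and the log2 fold changes of Cdc6 were 2.98 ± 0.26 in KO and 2.85 ± 0.27 in KI. Cdt1, its partner in loading, rose by 1.08 ± 0.17 and 1.08 ± 0.18. Gmnn, which encodes geminin, the inhibitor of CDT1, was at 46.1, 40.4, 41.9 and 35.0 in the KO libraries, 52.7, 47.0 and 28.8 in the WT libraries and 30.9, 37.7, 32.6 and 35.7 in the KI libraries. These ranges overlapped, and Gmnn changed by -0.09 ± 0.19 in KO and -0.32 ± 0.19 in KI, neither past the test (adjusted p = 0.716 and 0.184). Without WT 8, its lowest WT library, Gmnn was called lower in KI (-0.54, adjusted p = 0.00341). Mcm10, a factor of the firing helicase, rose by 2.50 ± 0.19 and 2.32 ± 0.26. Pcna, the sliding clamp of the DNA polymerases, was at 263, 251, 223 and 237 in the KO libraries, 211, 181 and 122 in the WT libraries and 264, 285, 229 and 272 in the KI libraries. Its rises of 0.49 ± 0.17 and 0.61 ± 0.18 were among the smallest that passed, and the call in KO was lost without KO 5, KO 6, KO 8 or WT 7, with adjusted p of up to 0.0783.

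Genes that supply deoxynucleotides rose in both groups. Rrm1 and Rrm2 encode the large and the small subunit of ribonucleotide reductase. Rrm1 was at 353, 329, 333 and 296 in the KO libraries, 153, 108 and 111 in the WT libraries and 203, 199, 185 and 207 in the KI libraries, which sets KO above KI and both above WT without overlap. Rrm2 was at 90.1, 113, 106 and 107 in the KO libraries, 58.8, 59.6 and 78.4 in the WT libraries and 135, 143, 125 and 106 in the KI libraries. The gene of the large subunit had the larger estimate in KO (1.39 ± 0.15 against 0.68 ± 0.15 in KI) and that of the small subunit in KI (0.95 ± 0.16 against 0.65 ± 0.14 in KO). Tested directly, Rrm1 was higher in KO than in KI by 0.73 ± 0.08 and Rrm2 lower, at -0.28 ± 0.10. Tyms, which makes thymidylate, changed by 1.46 in KO and 1.81 in KI, and Tk1, thymidine kinase of the salvage route, by 1.24 and 1.38. The lower calls of Rrm2 and Tyms in KO against KI were lost when library totals replaced TMM (adjusted p = 0.115 and 0.0648) and without 1 library, namely KI 5, KI 6, KO 5 or KO 7 for Rrm2 (adjusted p up to 0.108) and KI 5, KI 6, KI 8, KO 6, KO 7 or KO 8 for Tyms (up to 0.101).

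Cyclin E1 gave the second largest change of the S phase genes in KO. Ccne1, which activates CDK2 at the start of S phase, was at 15.8, 18, 14.4 and 14.3 in the KO libraries, 2.23, 1.53 and 1.66 in the WT libraries and 9.4, 11.5, 8.21 and 6.84 in the KI libraries. KO lay above KI and KI above WT with no overlap, and the log2 fold changes were 3.05 ± 0.20 in KO, 2.28 ± 0.25 in KI and 0.79 ± 0.16 between them. Ccne2, the other cyclin E, rose by 1.18 ± 0.28 and 1.17 ± 0.28, and Cdk2 by 0.86 ± 0.16 and 0.83 ± 0.21. Neither of these differed between KO and KI past the test.

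The 3 E2F genes took separate courses. E2f1, an activator E2F, was at 25.9, 26.4, 23.3 and 28.4 in the KO libraries, 35.4, 35.4 and 30.2 in the WT libraries and 20.3, 20.6, 18.4 and 20.5 in the KI libraries. It was the 1 gene of the 41 that was lower in both groups, at -0.39 ± 0.13 in KO (adjusted p = 0.0241) and -0.75 ± 0.14 in KI (adjusted p = 8.89e-04); every WT library held more E2f1 than any edited library. The KO call was not firm, because it was lost without any one of KO 5, KO 6, KO 7, WT 5-6 and WT 7 (adjusted p up to 0.0953) and the value was 0.03 with library totals. E2f2, another activator, was at 12.8, 13.1, 13.8 and 13.3 in the KO libraries, 0.267, 1.86 and 0.708 in the WT libraries and 2.96, 2.59, 1.02 and 2.04 in the KI libraries. All 4 KO libraries stood above every other library, and the log2 fold change of 3.69 ± 0.41 was the largest of the 41. In KI, E2f2 overlapped with WT and its change of 1.12 ± 0.55 did not pass (adjusted p = 0.116), but without WT 7, the WT library with most E2f2, it was 1.99 (adjusted p = 0.0201). E2f2 was higher in KO than in KI by 2.60 ± 0.23. The repressor gene E2f8 was at 16.7, 19.5, 19.0 and 26.3 in the KO libraries, 2.41, 2.02 and 3.82 in the WT libraries and 11.7, 12.6, 9.64 and 8.88 in the KI libraries, which puts KO above KI and KI above WT. It rose by 2.84 ± 0.25 in KO and 1.93 ± 0.25 in KI.

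**Figure D3:**
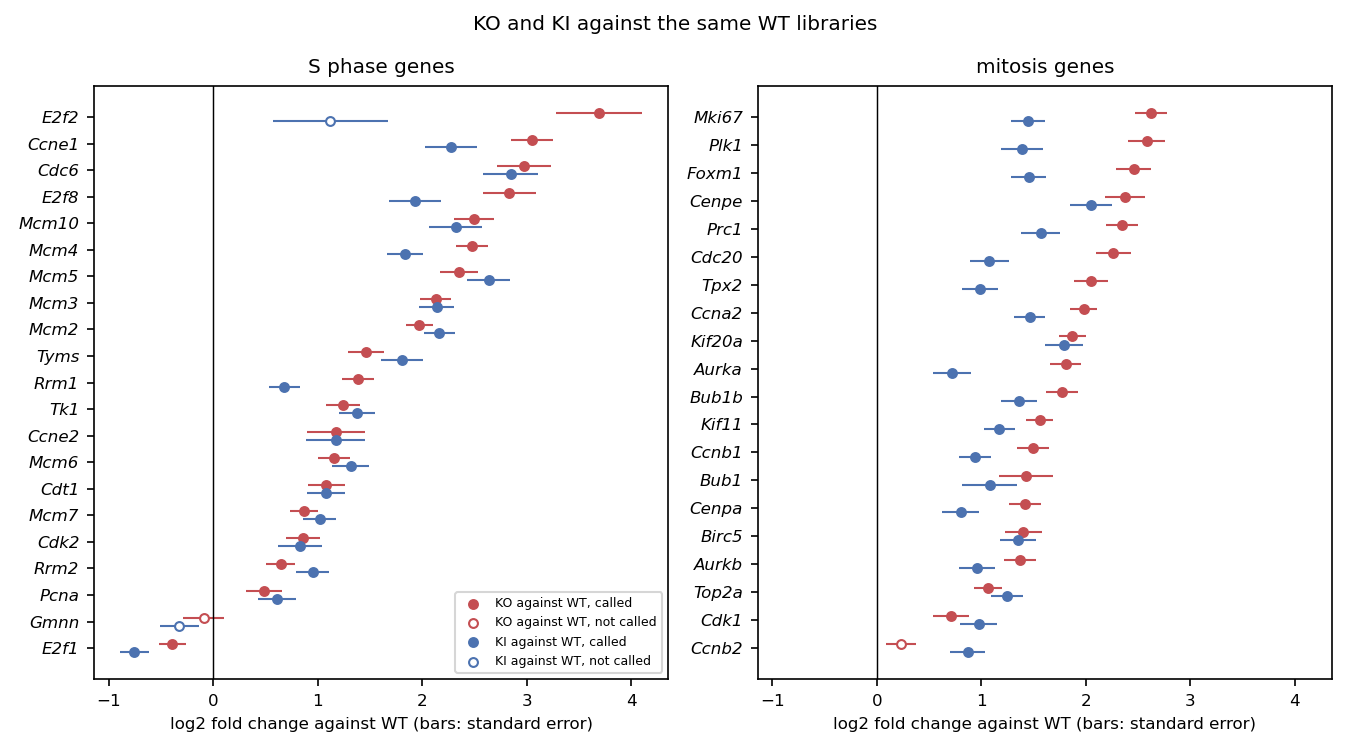
Points give the log2 fold change against WT (x axis, bars are standard errors) of each S phase gene (left) and mitosis gene (right) in KO and KI, filled where edgeR's adjusted p was under 0.05. Points of E2f1 lie below 0 in both comparisons, and the KO points of many mitosis genes lie to the right of the KI points.

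Among the mitosis genes, the kinases that drive entry into mitosis differed in size of change. Cdk1, the master kinase, rose by 0.71 ± 0.17 in KO and 0.98 ± 0.18 in KI. Its partner Ccna2, cyclin A2, was at 95.5, 101, 99.7 and 93.3 in the KO libraries, 28.4, 22.2 and 22.3 in the WT libraries and 70.5, 74.3, 60.9 and 62.9 in the KI libraries and rose by 1.98 ± 0.13 and 1.47 ± 0.15. The 3 groups of Ccna2 stood apart, KO highest. Ccnb1, cyclin B1, showed the same order with 1.50 ± 0.15 in KO and 0.94 ± 0.15 in KI. Ccnb2, cyclin B2, did not: it was at 26.3, 30.2, 29.9 and 26.7 in the KO libraries, 28.2, 22.5 and 20.5 in the WT libraries and 42.3, 53.4, 38.1 and 39.8 in the KI libraries. KI was highest and KO overlapped with WT, with 0.23 ± 0.14 in KO (adjusted p = 0.188) and 0.87 ± 0.17 in KI, and without WT 5-6 the KO value was 0.40 (adjusted p = 0.0385). Ccnb2 was the mitosis gene that was lower in KO than in KI, at -0.61 ± 0.11. Foxm1, the transcription factor of the G2 and mitosis genes, was at 50.1, 68.8, 54.4 and 66.5 in the KO libraries, 9.27, 10.9 and 11.9 in the WT libraries and 35.4, 28.6, 25.7 and 28.2 in the KI libraries, and it rose by 2.46 ± 0.17 and 1.45 ± 0.17.

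Kinases of the spindle and the kinetochore were higher in both groups. Plk1, Polo-like kinase, was at 60.5, 81.1, 66.9 and 77.8 in the KO libraries, 14.1, 9.16 and 11.9 in the WT libraries and 34.2, 38.3, 27.4 and 23.4 in the KI libraries. Every KO library exceeded every KI library, every KI library exceeded every WT library, and the changes were 2.59 ± 0.18 in KO and 1.39 ± 0.20 in KI. Aurka, the Aurora kinase of spindle poles, was at 27.7, 36.5, 29.9 and 29.9 in the KO libraries, 8.56, 8.59 and 8.89 in the WT libraries and 17.7, 14.9, 13.6 and 11.3 in the KI libraries, with 1.81 ± 0.15 and 0.72 ± 0.18. Aurkb, the Aurora kinase of the chromosomal passenger complex, rose by 1.37 and 0.96, and Birc5, survivin of the same complex, by 1.40 and 1.35. Of the checkpoint genes, Bub1 and Bub1b rose by 1.42 and 1.77 in KO and by 1.08 and 1.36 in KI. Cdc20, the activator of the anaphase-promoting complex that the checkpoint holds back, was at 60.3, 77.1, 57.8 and 74.4 in the KO libraries, 16.5, 12.8 and 12.3 in the WT libraries and 34.5, 33.6, 24.5 and 24.1 in the KI libraries, and KO was again above KI and KI above WT.

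Motor, spindle and chromosome genes were higher in both groups as well. Mki67, which encodes the proliferation marker Ki-67, was at 289, 390.0, 335 and 394 in the KO libraries, 53.5, 55.2 and 60.1 in the WT libraries and 183, 158, 158 and 116 in the KI libraries. It had the largest change of the mitosis genes in KO, 2.63 ± 0.15, and 1.45 ± 0.16 in KI. Tpx2, which activates Aurora A on the spindle, was at 92.2, 114, 92.8 and 97.2 in the KO libraries, 28.5, 23.2 and 18.8 in the WT libraries and 50.3, 52.3, 42.0 and 41.6 in the KI libraries, with 2.05 ± 0.16 and 0.99 ± 0.17. The KO libraries held more than any KI library of both genes. Prc1, which bundles microtubules of the midzone, rose by 2.35 and 1.57, and the kinesin genes Kif11 and Kif20a by 1.56 and 1.87 in KO and 1.17 and 1.79 in KI. Kif11 was summed over its pair of table entries, as were Cdkn1a, Pold4 and Skp2 below. Cenpa, the centromeric histone, and Cenpe, a kinetochore motor, rose by 1.42 and 2.37 in KO and 0.80 and 2.05 in KI. Top2a, the topoisomerase that untangles sister chromatids, was at 254, 255, 244 and 231 in the KO libraries, 137, 114 and 97.0 in the WT libraries and 307, 285, 252 and 259.7 in the KI libraries. Its KO and KI ranges overlapped, and it rose by 1.06 ± 0.14 and 1.25 ± 0.15.

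Set against each other, KO and KI differed in the mitosis genes more than in the S phase genes by count. In KO against KI, 15 of the 20 mitosis genes were higher, 1 was lower (Ccnb2) and 4 did not pass (Cdk1, Birc5, Kif20a and Top2a), with a median log2 fold change of 0.49. Of the 21 S phase genes, 7 were higher (Mcm4, Gmnn, Rrm1, Ccne1, E2f1, E2f2 and E2f8), 2 were lower (Rrm2 and Tyms) and 12 did not pass, with a median of 0.03. The background was 54% of 13269 genes called, 27% higher and 27% lower, and a median of 0.00. The S phase count higher, 33.3%, was near that background. Largest among the mitosis genes were Plk1 (1.22 ± 0.14), Cdc20 (1.21 ± 0.14), Mki67 (1.20 ± 0.13), Aurka (1.11 ± 0.14), Tpx2 (1.09 ± 0.10) and Foxm1 (1.03 ± 0.12). Levels in KO and KI did not overlap for 14 mitosis genes that were higher and 1 that was lower, against 24.2% and 24.4% of all genes, and for 6 S phase genes that were higher. The higher call of Gmnn rested on an adjusted p of 0.0489 and was lost with DESeq2 (0.0562), with limma (0.0513) and without any 1 library other than KI 6 or KO 8. With all 11 libraries in 1 fit, the calls of Gmnn (adjusted p = 0.208), Bub1 (0.172), Cenpe (0.0644), Rrm2 (0.0721) and Tyms (0.1) were lost. Without KI 8, 6 of the 41 genes were lower in KO than in KI, Mcm2, Mcm5, Mcm6 and Mcm7 being added, and without KI 7 there were 5, Mcm5 and Cdk1 being added. Whether the S phase and mitosis genes differed from each other in this comparison was not tested.

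**Figure D4:**
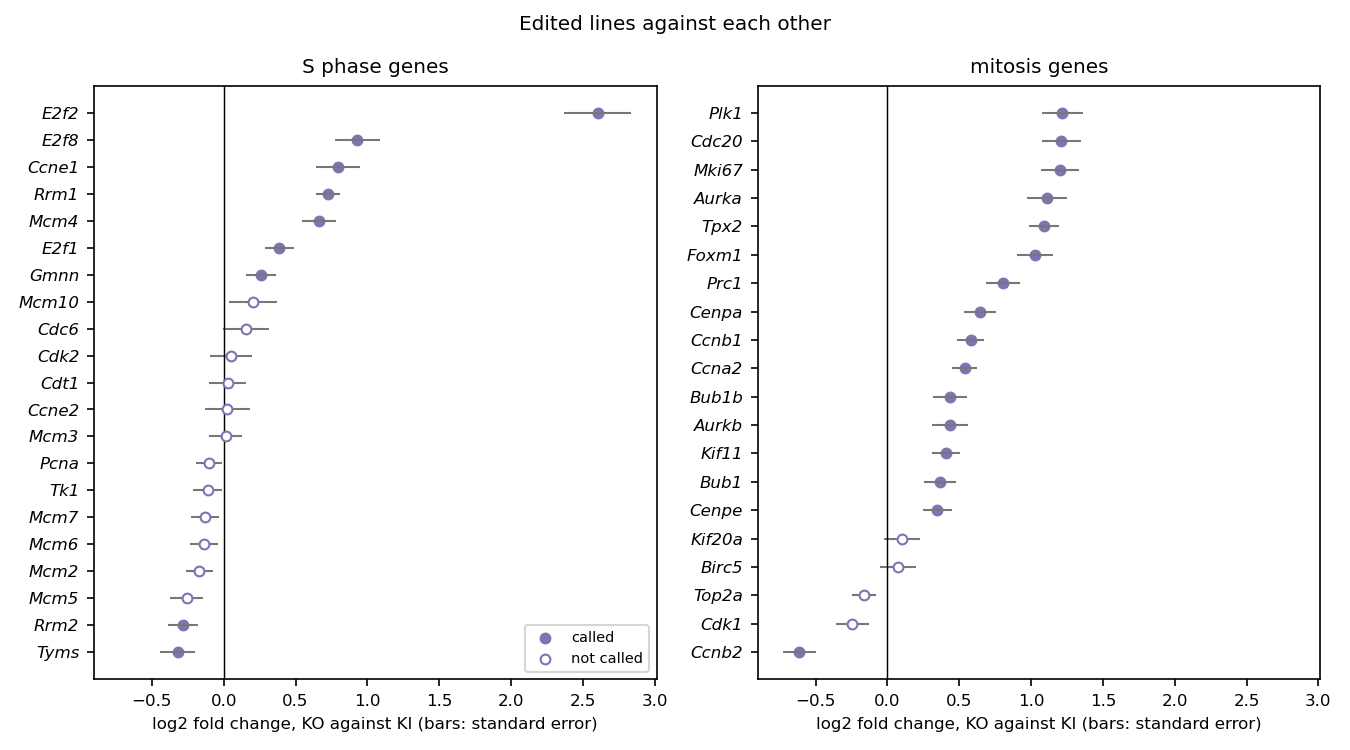
Points give the log2 fold change of KO against KI (x axis, bars are standard errors) for each S phase gene (left) and mitosis gene (right), filled where the adjusted p was under 0.05. Mitosis genes lie mostly right of 0, with Ccnb2 at -0.61, and S phase genes lie around 0 with E2f2 at 2.60.

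Position in the genome was read beside these changes. The 41 genes lie on 16 chromosomes. On chromosome 7, which carries 6 of them, the median log2 fold change in KO against WT was 0.52 over 943 genes tested and 2.61 over the 6, and on chromosome 16 and chromosome 4 it was 0.49 and 0.30 over all genes. With the median of its own chromosome subtracted from each gene, a setting chosen after seeing the data, the medians were 1.46 for S phase and 1.77 for mitosis genes in KO against WT, 1.42 and 1.25 in KI against WT, and 0.11 and 0.55 in KO against KI. The part of chromosome copy number in these values was not tested.

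Most other genes of the same processes were also called higher against WT. Their lists were chosen with earlier results of these data known, so they give no independent support. Of 55 further replication genes, 42 were higher (76.4%) and 6 lower (10.9%) in KO, with 26.7% and 28.4% of all genes. In KI, 44 were higher (80%) and 2 lower (3.64%), with 21.2% and 21% of all genes. The medians were 1.01 in KO and 1.14 in KI. Clspn, which encodes the checkpoint mediator claspin, rose by 2.72 ± 0.19 in KO and 2.22 ± 0.19 in KI, Ticrr, a factor of origin firing, by 2.58 ± 0.23 and 1.28 ± 0.24, and Orc1, the large subunit of the origin recognition complex, by 2.56 ± 0.27 and 2.68 ± 0.29. Pold4, the smallest subunit of DNA polymerase delta, was at 33.4, 27.9, 30.6 and 26.1 in the KO libraries, 119, 78.7 and 72.4 in the WT libraries and 30.5, 29.6, 29.3 and 33.9 in the KI libraries. It went the other way without overlap, falling by 1.62 in KO and 1.54 in KI on the log2 scale. Rpa3, of the complex that covers single-stranded DNA, fell by 1.07 in KO, while its KI value was -0.32 ± 0.25 and did not pass. Orc3, another origin subunit, was called lower in KI by 0.62, and its KO value of -0.45 ± 0.18 did not pass. The KI call was lost with library totals (-0.26, adjusted p = 0.255) and without KI 6, WT 5-6 or WT 7 (adjusted p up to 0.0952), and Orc3 in KO was called with DESeq2 (-0.47, adjusted p = 0.0342) and without WT 8 (-0.62, adjusted p = 0.00107). Orc6 was called higher in KI by 0.58 ± 0.21, which was lost without KI 5, KI 6, KI 8 or WT 8 (adjusted p up to 0.106), and its KO value of -0.29 ± 0.21 did not pass but was called lower without WT 8 (-0.50, adjusted p = 0.00504). Lig1, the ligase of Okazaki fragments, rose by 2.19 ± 0.14 and 1.39 ± 0.20. In KO against KI, 9 of the 55 were higher (16.4%) and 15 lower (27.3%), where 27% of all genes were called in each direction, led by Ticrr (1.32) and Lig1 (0.82) and by Orc6 (-0.85) and Rpa3 (-0.73).

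Of 66 further mitosis genes, 62 were higher (93.9%) and 1 lower (Zwint, 1.52%) in KO, with 26.7% and 28.4% of all genes. In KI, 53 were higher (80.3%, with 21.2% of all genes) and 13 did not pass. The medians were 1.49 in KO and 1.02 in KI. Troap and Ckap2l, which encode spindle-associated proteins, had the largest rises in KO, 2.50 ± 0.19 and 2.44 ± 0.17, and rose in KI by 1.68 ± 0.23 and 1.12 ± 0.21. In KI the kinesin genes Kif15 and Kif23 led with 2.14 ± 0.21 and 1.95 ± 0.19. Zwint, a kinetochore gene, was at 314, 249, 274 and 230.3 in the KO libraries, 454, 402 and 266 in the WT libraries and 308, 315, 265 and 352 in the KI libraries, and its call of -0.51 ± 0.18 in KO came with overlapping ranges and was lost in 5 of the 7 fits without 1 library (adjusted p up to 0.166). In KO against KI, 38 of the 66 were higher (57.6%) and 5 lower (7.58%), where 27% of all genes were called in each direction. Cdc25b, the phosphatase that activates CDK1, was at 19.9, 25.6, 18.9 and 24.8 in the KO libraries, 6.95, 5.93 and 5.06 in the WT libraries and 9.96, 7.77, 6.4 and 6.26 in the KI libraries, and was higher in KO than in KI by 1.55 ± 0.16, with no call in KI against WT. Cenpw and Cenph, of the inner kinetochore, were lower, at -0.83 ± 0.16 and -0.60 ± 0.19.

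Genes that govern entry into the cycle were read as a list of 33 cyclins, kinases, inhibitors, pocket proteins and E2F or MuvB partners. In KO against WT 16 were higher (48.5%, with 26.7% of all genes) and 3 lower (9.09%, with 28.4%). In KI against WT 18 were higher (54.5%, with 21.2% of all genes) and 5 lower (15.2%, with 21%). The cyclin D genes Ccnd1 and Ccnd2, which link growth signals to the cycle, rose in both groups. Ccnd1 was at 717, 901, 742 and 896 in the KO libraries, 312, 357 and 387 in the WT libraries and 829, 834, 780.4 and 671 in the KI libraries, with changes of 1.19 ± 0.15 and 1.14 ± 0.16. Ccnd2 was at 104, 132, 113 and 132 in the KO libraries, 28.7, 37.6 and 43.9 in the WT libraries and 128, 124, 144 and 115 in the KI libraries, with 1.69 ± 0.17 and 1.79 ± 0.17. KO and KI overlapped for both genes and each edited library held more than any WT library. Ccnd3 did not pass in either (0.23 ± 0.12 and 0.22 ± 0.13). Cdk4, a kinase partner of cyclin D, was higher in KI (0.92 ± 0.15) and not past the test in KO (0.33 ± 0.14), and Cdk6 passed in neither (-0.13 ± 0.18 and 0.31 ± 0.15).

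Of the genes for inhibitors of cyclin-dependent kinases, Cdkn2a differed most between KO and the other groups. Cdkn2a, which encodes p16INK4a and p19ARF from overlapping reading frames, was at 1.29, 2.34, 0.93 and 1.5 in the KO libraries, 44.3, 34.7 and 33.6 in the WT libraries and 59.2, 68.6, 56.5 and 55.2 in the KI libraries. All 4 KO libraries were close to 0 and all KI libraries above WT, with log2 fold changes of -4.59 ± 0.26 in KO and 0.67 ± 0.15 in KI, and the table does not tell its 2 products apart. Cdkn2b, its neighbour in the genome, which encodes p15INK4b, was at 16.7, 17.8, 14.6 and 16.4 in the KO libraries, 21.9, 17.0 and 15.8 in the WT libraries and 32.3, 36.2, 28.9 and 27.6 in the KI libraries. It overlapped between KO and WT (-0.17 ± 0.15, adjusted p = 0.363) and was higher in KI (0.78 ± 0.16). Cdkn1a, which encodes p21, was at 181, 180.1, 167 and 180.1 in the KO libraries, 131, 126 and 153 in the WT libraries and 111, 109.9, 105 and 109 in the KI libraries. Its rise in KO (0.35 ± 0.12, adjusted p = 0.0237) and fall in KI (-0.33 ± 0.13, adjusted p = 0.048) were small. The KI call was lost in all 7 fits without 1 library, up to adjusted p of 0.12, and the KO call without KO 5, KO 6, KO 8 or WT 7, up to 0.0766. Cdkn1b, which encodes p27, did not pass in KO (-0.06 ± 0.12) or KI (-0.02 ± 0.13) and was at 99.0, 93.2, 99.2 and 98.9 in the KO libraries, 104, 108 and 89.5 in the WT libraries and 98.0, 92.3, 98.4 and 109 in the KI libraries. Cdkn1c, which encodes p57, was at 3.45, 2.13, 1.89 and 2.81 in the KO libraries, 1.92, 0.847 and 2.02 in the WT libraries and 0.224, 0.386, 0.00 and 0.00 in the KI libraries, and KI was lowest, with 0 counts in 2 libraries. Cdkn2c rose in KO (0.92 ± 0.15) and was 0.30 ± 0.17 in KI without passing, and Cdkn2d was lower in KI (-0.44 ± 0.16, adjusted p = 0.045) and not past the test in KO (0.27 ± 0.13). The KI call of Cdkn2d was lost without KI 5, KI 7, KI 8, WT 5-6 or WT 7 (adjusted p up to 0.143). It was also lost without the filter (0.0718) and with library totals (-0.11, adjusted p = 0.663).

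**Figure D5:**
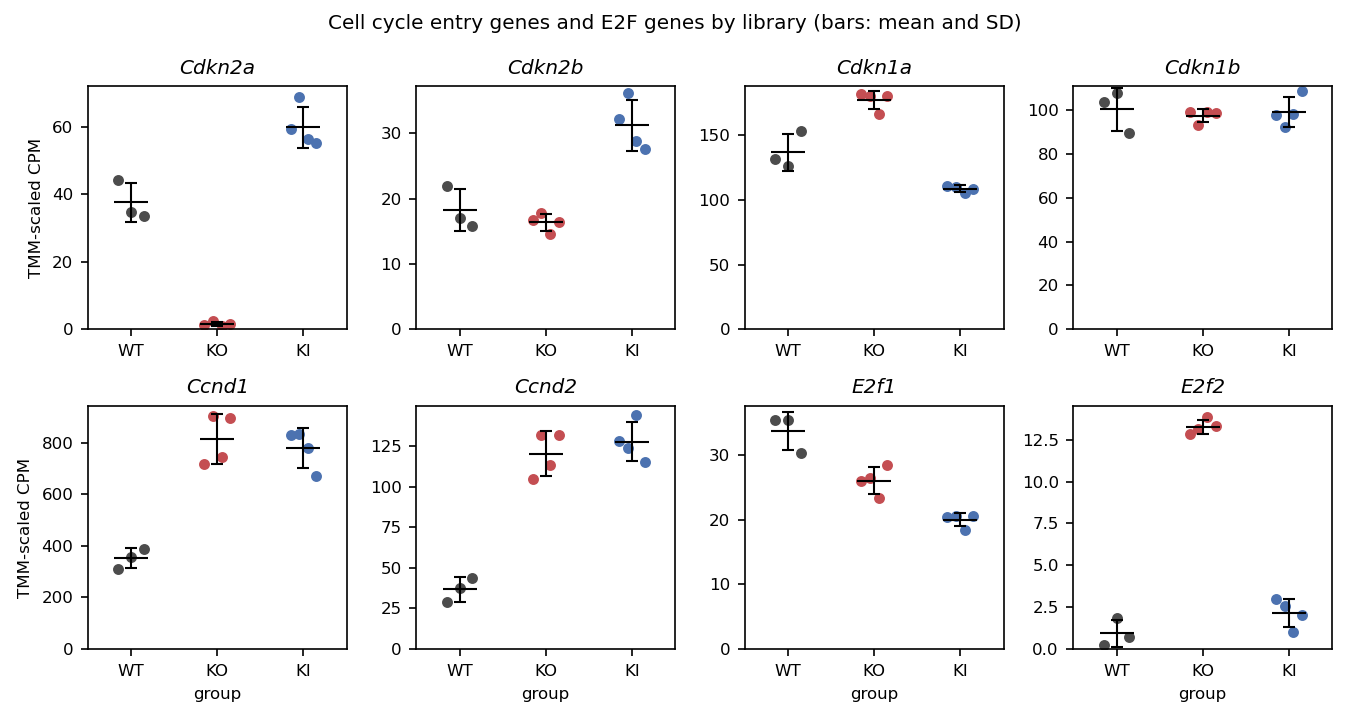
Points are single libraries, with TMM-scaled CPM on the y axis (from 0) and group on the x axis, and bars give the mean and SD of 3 WT, 4 KO and 4 KI libraries. Cdkn2a is near 0 in KO and highest in KI, Ccnd1 and Ccnd2 are higher in both edited groups than in WT, and E2f2 is high in KO alone of the 3 groups.

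Pocket protein and partner genes were mixed. Rbl1, which encodes p107 and is itself a target of E2F, rose by 1.87 ± 0.18 in KO and 1.62 ± 0.16 in KI. Rb1 was lower, at -0.32 ± 0.13 (adjusted p = 0.0467) and -0.42 ± 0.14 (adjusted p = 0.0267), and with library totals it was 0.08 in KO. The KO call was lost without the filter (adjusted p = 0.0919) and in all 7 fits without 1 library (0.0637 to 0.144), and the KI call without KI 5, KI 6 or KI 8 (up to 0.086). Rbl2, which encodes p130 of resting cells, was -0.27 ± 0.17 in KO without passing and lower, at -0.67 ± 0.17 in KI. The further E2F genes gave rises of E2f7 (2.24 ± 0.27 and 1.30 ± 0.30), E2f3 (0.41 ± 0.14 and 0.68 ± 0.18) and E2f4 (0.46 ± 0.12 and 0.59 ± 0.13), while E2f6 did not pass (0.00 ± 0.15 and -0.11 ± 0.16). The KO call of E2f3 was lost without KO 5, KO 7, KO 8, WT 5-6 or WT 7 (adjusted p up to 0.108). With the replicate number in the fit of all 11 libraries, E2f3 was called in neither KO (adjusted p = 0.18) nor KI (0.0551). E2f5 was at 12.8, 11.8, 11.4 and 9.85 in the KO libraries, 33.0, 34.3 and 21 in the WT libraries and 18.3, 22.7, 18.6 and 26.0 in the KI libraries, lowest in KO, with -1.38 ± 0.19 in KO and -0.46 ± 0.19 in KI, the latter not past the test. E2f5 was called lower in KI without WT 8 (-0.65, adjusted p = 0.00438) and without KI 8 (-0.56, adjusted p = 0.0476). Tfdp1, the dimer partner of E2F, rose by 0.80 ± 0.11 and 1.14 ± 0.13, whereas Tfdp2 did not pass (0.39 ± 0.16 and 0.18 ± 0.16).

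Of the MuvB partners, Mybl2, which encodes B-MYB, was at 17.9, 26.5, 17.8 and 25.9 in the KO libraries, 4.19, 2.99 and 2.94 in the WT libraries and 17.8, 17.6, 13.1 and 10.0 in the KI libraries, the largest rise of the 33 genes in KO (2.67 ± 0.23) and in KI (2.10 ± 0.24). Lin54, the subunit that reads the CHR letters, rose by 1.32 ± 0.18 and 0.89 ± 0.17. Lin52 was higher in KO (1.13 ± 0.24) with 0.32 ± 0.31 in KI, and Lin9 was higher in KI (0.52 ± 0.18) with 0.22 ± 0.14 in KO, the second value of each not past the test. Wee1 and Pkmyt1, which hold CDK1 inactive, rose by 2.50 and 1.35 in KO and 1.64 and 0.76 in KI. Chek1, the kinase of the replication checkpoint, rose by 1.09 and 1.67, and Cdc25a by 0.69 in KI, with 0.42 in KO not past the test. Of the ubiquitin ligase genes, Skp2, which targets p27, rose by 1.66 and 1.70, while Fzr1 (0.42 and 0.32) and Fbxw7 (0.05 and 0.00) did not pass in either comparison. The pair of Skp2 entries differed in the WT libraries, with 23, 63 and 9 counts in one and 72, 68 and 104 in the other, and the change is of their sum. Fzr1 in KO was called higher with DESeq2 (0.40, adjusted p = 0.0485), with limma (0.43, adjusted p = 0.0396) and without WT 8 (0.67, adjusted p = 0.000855). Without WT 8 it was also called higher in KI (0.55, adjusted p = 0.00413). In KO against KI, 12 of the 33 were higher (36.4%) and 7 lower (21.2%), with 27% of all genes called in each direction.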

How the data were processed

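AML12 libraries (4 KO, 3 WT, 4 KI) were analysed from 1 deposited table of gene counts, in which the authors gave whole-number counts per assembled entry beside FPKM, and the 11 FPKM columns were not used here. The submitters' processing notes name HISAT2, TopHat2, Bowtie2 and StringTie without versions; the genome build and the strand setting are not given in the sources used here. Of 26472 lines, 10 broken ones were left out, and the counts of the other 26462 entries (2960 newly assembled) were summed by gene name. Counts were tested with edgeR 4.0.16 in R 4.3.3 (filterByExpr, TMM, quasi-likelihood test, 1 fit per pair of groups, prior count 2) with Benjamini-Hochberg adjustment over all genes tested; a call is an adjusted p under 0.05. The scripts were tested on simulated data. Alternatives were DESeq2 1.42.0, its size factors, library totals, limma 3.58.1 on log2 CPM plus 1, no filter, all 11 libraries in 1 fit with and without the replicate number, annotated entries only, the 2 largest new entries left out, and each library left out in turn. Promoter letters came from RefSeq windows of build GRCm38.p6. Figures were drawn with matplotlib 3.10.9. No pair of libraries agreed within counting noise. The level of 1 marker gene is not reported here. The members and lists were chosen with earlier results of these data known. Named were all 41 members, all 33 cell cycle entry genes, Txndc5, and of other replication and mitosis genes the 2 highest and 2 lowest calls per comparison. Library totals of 29840366 to 38422243 counts limit precision for low genes such as E2f2.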

Additional observations from a re-analysis of the deposited data

Results flagged for a closer look

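In groups of 4 libraries, 148 sets of levels were examined for a library that stood apart from the other 3 (Dixon's ratio of gap to range), and 4 were found, where chance alone would give about 7.4, since about 1 in 20 groups is flagged by chance. E2f1 in KI 7 was at 18.4 CPM against 20.3 to 20.6 in the other KI libraries (ratio 0.892). Cdkn1a in KO 7 was at 167 CPM against 180.1 to 181 in the other KO libraries (ratio 0.906). Cdkn1b in KO 6 was at 93.2 CPM against 98.9 to 99.2 (ratio 0.942). Tfdp1 in KO 7 was at 111 CPM against 121 to 123 (ratio 0.839).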

How the results depend on the processing

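Of 2009 single values of the 41 genes under the alternatives, 1930 kept their direction and their side of the threshold, 45 lost a call, 13 gained one and 21 changed sign. Calls of higher genes among the 41 stayed within 1.5 times of the reported counts under all alternatives run, in the 3 comparisons. The median of all genes moved with library totals in place of TMM, by 0.38 for KO against WT, 0.30 for KI against WT and 0.06 for KO against KI, while the medians of the 41 genes were 1.98, 1.59 and 0.41; of all calls, 72.8%, 76.3% and 56.1% were then higher, against 48.5%, 50.2% and 50% with TMM. The count of the 41 genes called lower in KO against WT (1) was 0 with library totals, 0 with the replicate block and 0 to 1 without 1 library. In KI against WT (1) it was 1 to 2 without 1 library, 2 without WT 8. In KO against KI (3) it was 1 with all 11 libraries in 1 fit, 1 with library totals, 1 with the replicate block and 1 to 6 without 1 library. DESeq2 added Mcm5 to these 3 (-0.27, adjusted p = 0.0473). CCAAT on the plus strand alone stood in 45% of S phase windows and 68.8% of mitosis windows, against 21.1% of all windows. Same-numbered libraries correlated between -0.38 and 0.50 in their deviations from the group means, so the numbers were not taken as pairs; the replicate block left 19 S phase and 19 mitosis genes higher in KO, 18 and 19 in KI (Aurka lost, 0.58, adjusted p = 0.0575) and 6 and 13 in KO against KI (Gmnn lost, adjusted p = 0.215, Bub1, 0.132, and Cenpe, 0.103). The cause of these shifts was not tested.

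Values that changed sign were near 0 or moved with the scaling. With library totals they were, on the log2 scale in KO against WT, Gmnn 0.35, E2f1 0.03, Cdk6 0.26, Cdkn1b 0.36, Cdkn2b 0.25, Rb1 0.08, Rbl2 0.12, Cenpw 0.43 and Orc6 0.16. In KI against WT they were Gmnn 0.04, Cdkn1b 0.32, E2f6 0.23, Rpa3 0.03 and Zwint 0.08, and in KO against KI Cdkn1b 0.04, Skp2 0.05 and Pold4 0.00. With the replicate block, KO against WT gave Gmnn 0.09, Cdkn1b 0.03 and Cenpw 0.08, and KI against WT Cdkn1b 0.05. With DESeq2 and with its size factors, E2f6 in KO was -0.02, Fbxw7 in KI -0.02 and Mcm3 in KO against KI -0.00, and with annotated entries only E2f6 was -0.03 and Fbxw7 -0.02. Cenpw in KO was 0.02 with all 11 libraries in 1 fit, 0.01 with limma and 0.01 without the filter.
Without 1 library, the values that could change sign ran over these ranges. In KO against WT they were Gmnn -0.28 to 0.11, Cdk6 -0.23 to 0.07, Cdkn1b -0.11 to 0.02, E2f6 -0.03 to 0.11, Fbxw7 -0.07 to 0.16 and Cenpw -0.13 to 0.14. In KI against WT they were Cdkn1b -0.09 to 0.04 and Fbxw7 -0.08 to 0.09. In KO against KI they were Mcm3 -0.08 to 0.09, Cdt1 -0.06 to 0.12, Cdk2 -0.10 to 0.14, Ccne2 -0.06 to 0.19, Birc5 -0.03 to 0.16, Kif20a -0.03 to 0.20, Ccnd1 -0.01 to 0.12, Ccnd3 -0.01 to 0.06, Cdkn1b -0.06 to 0.01, Skp2 -0.12 to 0.06 and Fbxw7 -0.05 to 0.14. Calls lost without at least 1 library were in KO against WT those of Pcna, E2f1, Cdkn1a, Rb1, E2f3, Zwint, in KI against WT those of Cdkn1a, Cdkn2d, Rb1, Lin9, Pkmyt1, Orc3, Orc6, in KO against KI those of Gmnn, Rrm2, Tyms, Tfdp2, Lin54, Mybl2, Cenph. Calls were also gained. With all 11 libraries in 1 fit, Cdk4 (0.34), Tfdp2 (0.41), Cdc25a (0.44) and Fzr1 (0.44) were called higher in KO against WT. Without WT 8, Ccnd3 (0.29), Tfdp2 (0.54) and Cdc25a (0.66) were also called higher in KO against WT. In KI against WT without WT 8, Cdk6 (0.49) was called higher, and E2f5 (-0.65), Rpa3 (-0.56) and Zwint (-0.46) lower.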

Other observations

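Spread between libraries differed by group for the replication and mitosis genes. The median SD of log2(CPM + 1) over the 21 S phase genes was 0.12 in KO and 0.21 in KI, where it was 0.15 and 0.16 over all genes, and 0.28 in WT, where it was 0.26 over all genes. Over the 20 mitosis genes it was 0.14, 0.21 and 0.23 in KO, KI and WT.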
